A study of Mus musculus and Homo sapiens with 41 samples.

Results

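The regions described here are stretches of the mouse genome that lay under H2AK119ub peaks in Tet2 KO haematopoietic stem and progenitor cells (HSPCs) given an shRNA against Mbd6, and under no peak in control HSPCs. They were chosen by the peak lists themselves: bases on the 19 autosomes, X and Y covered in at least 2 of 3 Tet2 KO shMbd6 libraries were merged and kept when they touched no peak of any of the 6 control libraries. The rule left 2206 regions of 0.721 Mb, which are 30.7% of the 7174 regions of Tet2 KO shMbd6 HSPCs and 22.996% of their bases, in a series whose mouse H2AK119ub groups held 44103 regions in all. The other 4968 regions overlapped at least 1 control peak and are called shared regions, and the 2206 are called knockdown-only regions after the rule.

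The 9 HSPC libraries fall into Tet2 KO with shMbd6, Tet2 KO with the control shRNA shNC, and wild type (WT) with shNC, with 3 libraries each. Lineage-negative, c-Kit-positive bone marrow cells of mice aged 6 to 8 weeks received the shRNA by electroporation, and H2AK119ub was profiled by CUT&Tag, in which an antibody-guided transposase cuts and tags marked chromatin. A WT group with shMbd6 was not analysed here, so an effect of Mbd6 knockdown cannot be told apart from one that depends on the Tet2 KO. The mouse embryonic stem cell (mESC) libraries were Tet2 KO with siMbd6, siNsun2 or siNC, WT with siNC, and untransfected Tet2 KO and WT, with 3 H2AK119ub libraries each, and 2 BAP1 libraries came from WT mESCs. K-562, a human erythroleukaemia line, gave 4 groups of 3 libraries: TET2 KO with siMBD6, siNSUN2 or siNC, and WT with siNC. Peak lists carry no expression, so neither the knockdown nor the identity of the cells could be checked in them, and nothing in the labels tells whether replicate libraries came from separate animals or cultures, so that p-values measure the spread between libraries.

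H2AK119ub is histone H2A with a single ubiquitin on a lysine near its end. The Polycomb repressive complex PRC1 writes it through its RING1 and RNF2 subunits, and the PR-DUB complex removes it with the deubiquitinase BAP1, which works with an ASXL partner and with the methyl-CpG-binding domain proteins MBD5 or MBD6. TET2 oxidizes 5-methylcytosine, NSUN2 places 5-methylcytosine on RNA, and TET2 is among the genes most often mutated in clonal haematopoiesis.

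The sequences of 2 promoter regions and 2 regions far from genes are shown as examples of positions found below. They were picked by length and need not be typical of their class in base content. The promoter regions are 2 of the 10 longest among those covered in all 3 Tet2 KO shMbd6 libraries, and the others are 2 of the 5 longest that lie more than 50 kb from any annotated transcription start site (TSS). Each is the central 300 bases of its region on the plus strand of GRCm38 (mm10), with CG in capitals. They lie at chr7:100227626-100227925 (Pgm2l1), chr3:88553023-88553322 (Lamtor2), chr12:92883395-92883694 (intergenic region 1) and chrX:12252415-12252714 (intergenic region 2).
Pgm2l1: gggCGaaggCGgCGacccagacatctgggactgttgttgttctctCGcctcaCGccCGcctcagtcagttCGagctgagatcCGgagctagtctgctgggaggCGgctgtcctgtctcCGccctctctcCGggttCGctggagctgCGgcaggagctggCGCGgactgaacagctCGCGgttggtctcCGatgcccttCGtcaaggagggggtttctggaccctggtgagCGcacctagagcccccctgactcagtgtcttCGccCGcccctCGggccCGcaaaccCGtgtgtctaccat
Lamtor2: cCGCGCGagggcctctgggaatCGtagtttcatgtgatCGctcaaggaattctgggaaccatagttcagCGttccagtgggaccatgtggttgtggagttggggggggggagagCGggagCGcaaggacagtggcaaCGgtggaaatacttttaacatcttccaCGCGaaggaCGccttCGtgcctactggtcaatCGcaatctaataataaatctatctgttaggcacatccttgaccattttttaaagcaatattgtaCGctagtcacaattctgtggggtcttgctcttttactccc
Intergenic region 1: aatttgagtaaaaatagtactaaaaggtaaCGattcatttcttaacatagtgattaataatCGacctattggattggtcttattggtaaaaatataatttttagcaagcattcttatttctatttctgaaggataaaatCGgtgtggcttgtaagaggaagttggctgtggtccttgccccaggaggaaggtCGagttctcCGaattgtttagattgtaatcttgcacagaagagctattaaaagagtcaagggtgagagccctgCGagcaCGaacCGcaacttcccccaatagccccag
Intergenic region 2: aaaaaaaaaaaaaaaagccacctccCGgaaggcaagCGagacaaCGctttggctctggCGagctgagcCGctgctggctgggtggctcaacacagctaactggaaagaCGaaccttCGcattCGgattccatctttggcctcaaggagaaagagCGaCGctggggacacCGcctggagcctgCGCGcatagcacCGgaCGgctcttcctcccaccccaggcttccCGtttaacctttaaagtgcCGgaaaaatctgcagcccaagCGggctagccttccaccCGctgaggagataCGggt
The 300 bases held 25 CG at Pgm2l1, 15 at Lamtor2, 8 in intergenic region 1 and 20 in intergenic region 2. Their GC content was 65.7%, 49.7%, 39.3% and 57.3% in the same order, so that the first intergenic region stood out as poor in both.

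The libraries behind the rule differed in yield. Tet2 KO shMbd6 HSPCs had 7650 to 8286 peaks (3.43 to 3.95 Mb), against 1398 to 1451 peaks in Tet2 KO shNC HSPCs (0.648 to 0.681 Mb) and 3979 to 4629 in WT shNC HSPCs (1.89 to 2.24 Mb). The files hold no read counts and the depth is unknown, so a stretch outside the peaks may be unmarked or thinly sequenced, and marking in more cells cannot be told apart from more marking per cell. Peaks on the Drosophila spike-in, of which each sample received the same amount, numbered 85 to 95 in Tet2 KO shMbd6, 205 to 231 in Tet2 KO shNC and 48 to 56 in WT shNC libraries. The same rule turned round gave 124 of 1149 regions found in Tet2 KO shNC HSPCs alone (10.8%) and 87 of 3638 in WT shNC HSPCs alone (2.39%).

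The set shrank most when the libraries were made equal in number of peaks. With each HSPC library cut to its 1398 peaks of highest −log10 q, 114 of 1228 regions (9.28%) were left for Tet2 KO shMbd6 HSPCs, against 277 of 1135 (24.4%) for Tet2 KO shNC and 64 of 1204 (5.32%) for WT shNC HSPCs. Only 17 of those 114 overlapped the 2206 regions. With peaks of −log10 q of at least 5 alone, 675 of 2246 regions remained by the same rule. Without replicate 1, 2 or 3 of the Tet2 KO shMbd6 libraries, and with both others required, there were 1217, 1107 and 1140 regions.

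The peaks that made the regions were weak members of their lists. Knockdown-only regions had a median fold enrichment of 4.05, 4.01 and 3.98 in the 3 Tet2 KO shMbd6 libraries, against 4.47, 4.38 and 4.36 for peaks of shared regions. The median −log10 q was 3.47, 3.54 and 3.53 for peaks of knockdown-only regions, against 4.83, 4.98 and 4.91 for peaks of shared regions. These values are a description, since the strength of a peak and its presence in a list come from the same signal. Regions had a median length of 305 bases (3 to 926), against 450 bases for shared regions, and 624 of them (28.3%) were touched by all 3 Tet2 KO shMbd6 libraries, against 73.7% of shared regions.

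At the border of the rule, 42 knockdown-only regions (1.90%) had a control peak within 1 kb, the nearest at 2 bases, and 1965 (89.1%) lay more than 10 kb from one. On the other side, 1539 shared regions (31.0%) were kept out by a peak of 1 control library, in 1482 cases a WT shNC library and in 57 a Tet2 KO shNC library, and 20 overlapped 50 control bases or fewer. The WT libraries thus decided most of the set: with Tet2 KO shNC peaks alone as controls, a choice made after seeing the data, 5561 regions would have been kept, and with WT shNC peaks alone 2286. With a control counted only where 2 of its 3 libraries had a peak, also chosen after seeing the data, the number was 3843.

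The regions were also chosen with libraries left out. When replicate 1, 2 or 3 of every group was left out and the regions were chosen from the other libraries, the 3 sets held 1547, 1524 and 1460 regions. The left-out Tet2 KO shMbd6 library covered 49.0%, 58.4% and 52.9% of their bases, against 1.00%, 1.35% and 1.74% in the left-out Tet2 KO shNC library and 17.89%, 23.9% and 17.98% in the left-out WT shNC library. The groups did not overlap, and the means were 53.4 ± 4.69% in Tet2 KO shMbd6, 1.36 ± 0.371% in Tet2 KO shNC and 19.9 ± 3.45% in WT shNC HSPCs (SD, n = 3 each). Shared regions chosen in the same way had 81.4%, 87.2% and 85.7% of their bases covered in the left-out Tet2 KO shMbd6 libraries. Their values were 22.8%, 26.2% and 25.4% in Tet2 KO shNC and 62.1%, 70.6% and 63.5% in WT shNC libraries. The groups kept this order without overlap there too, so the separation was not particular to the knockdown-only regions. No test is given, because the regions were chosen by the same groups, the sets share libraries with each other and the lists differ in length. The left-out libraries held 7650 to 8286 peaks in Tet2 KO shMbd6, 1398 to 1451 in Tet2 KO shNC and 3979 to 4629 in WT shNC HSPCs. By number, 20.4% to 26.6% of the chosen regions had a peak in the left-out WT library, so the words knockdown-only describe these lists and not the absence of the mark in WT cells.

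**Figure D1:**
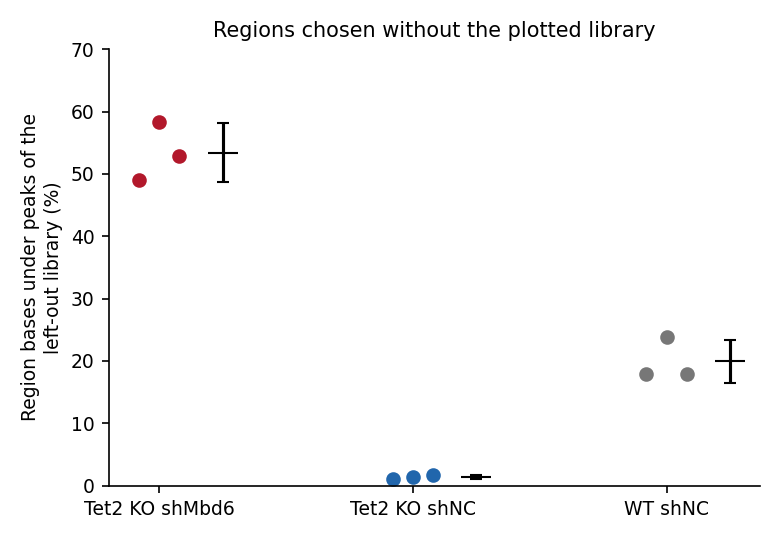
Share of region bases under peaks of a library that took no part in choosing the regions, for left-out Tet2 KO shMbd6, Tet2 KO shNC and WT shNC HSPC libraries. Points are the 3 left-out libraries of a group and the bar beside them is the mean with SD. The Tet2 KO shMbd6 points lie between 49.0% and 58.4%, the Tet2 KO shNC points under 2% and the WT shNC points between 17.9% and 23.9%.

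The regions gathered at gene starts. The centres of 978 (44.3%) lay within 1 kb of the TSS of a protein-coding gene, a zone that makes up 1.52% of the genome, and they belonged to 975 genes. A further 181 (8.20%) lay at another TSS of a protein-coding gene, 96 (4.35%) at the TSS of another gene type, 64 (2.90%) in other exons, 454 (20.6%) in introns and 433 (19.6%) between genes. Shared regions were at the TSS of a protein-coding gene in 54.2% and in introns or between genes in 16.9% and 15.6%. Around the TSS, 529 of the 978 centres (54.1%) were downstream, with a median of 26 bases downstream, against 47.6% and a median distance of −8 bases (upstream) for shared regions.

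Within each Tet2 KO shMbd6 library, the peaks that touched no control peak differed from the others in position and base content. Of them, 39.6%, 39.9% and 37.2% lay within 1 kb of a protein-coding gene TSS, against 54.3%, 52.98% and 53.2% of peaks that touched a control peak. The mean difference was −14.6 ± 1.48 percentage points (SD, n = 3 libraries, exact sign-flip p = 0.25, the smallest that 3 libraries allow). GC content differed by −2.76 ± 0.335 points and the ratio of observed to expected CpG by −0.0796 ± 0.00899, with the same direction in all 3 libraries and the same exact p = 0.25 for n = 3. Soft-masked repeat sequence made up 9.45 ± 0.531% of the peaks without a control peak and 13.2 ± 0.367% of those with one (SD, n = 3, exact p = 0.25). The 2 kinds of peak differ in strength and length as well, and the part of that in these differences was not tested.

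**Figure D2:**
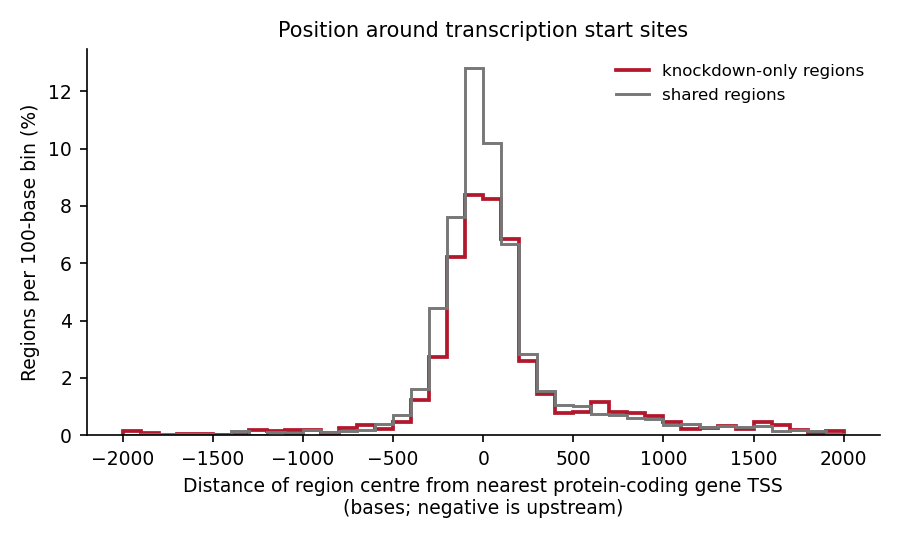
Share of regions in each 100-base bin of distance from the region's centre to the nearest protein-coding gene TSS, for knockdown-only (red) and shared (grey) regions. Both kinds crowd within 500 bases of the TSS, and the knockdown-only regions have a lower peak there.

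Base content differed between the classes of position. The median GC was 64.0% and the median ratio of observed to expected CpG 0.774 at protein-coding gene TSSs, against 53.3% and 0.223 in introns and 52.6% and 0.239 between genes. Exons away from starts (60.3% and 0.493) and TSSs of other gene types (55.3% and 0.389) lay between these values. Of all knockdown-only regions, 38.8% had GC of at least 55% with a CpG ratio of at least 0.65, against 49.6% of shared regions. Few were repeats: 49 (2.22%) were mostly soft-masked, against 9.32% of shared regions.

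Long promoter regions belonged to genes of many roles. At Pgm2l1, which makes glucose-1,6-bisphosphate, the region at chr7:100227313-100228238 (926 bases) was centred 382 bases downstream of the TSS and was covered over 518, 926 and 830 bases in the 3 Tet2 KO shMbd6 libraries. At Lamtor2, a subunit of the Ragulator complex that holds mTORC1 at lysosomes, chr3:88552721-88553625 was covered over 905, 905 and 825 bases. Both were at 0 in the 6 control libraries, which the rule required.

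Others among the 10 longest were at Slc39a8 (888 bases), a metal-ion importer, Tmcc3 (832), Itprid2 (832), Sdccag8 (784), a centrosome and cilium protein, Adam9 (780), a membrane metalloprotease, Gpc3 (750), a glypican of the cell surface, and Mocos (743), the molybdenum cofactor sulfurase. Their lengths cover a narrow range, so the order says little. The 9 named here were touched by all 3 untransfected Tet2 KO and all 3 WT siNC mESC libraries. In Tet2 KO mESCs they parted: Adam9 was touched in 3 of 3 libraries with siMbd6, siNsun2 and siNC alike, Sdccag8 in 2 of 3 with siMbd6 and in none with siNsun2 or siNC, and Itprid2 in none of the 9 libraries. The Sdccag8 region was covered over 0, 504 and 311 bases with siMbd6, against 0 in each siNC library.

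Regions far from genes were few. Of the 2206, 78 (3.54%) lay more than 50 kb from any annotated TSS, against 130 of the 4968 shared regions. Intergenic region 1, at chr12:92883258-92883832 (575 bases), lay 115 kb from the nearest TSS of any kind, was covered in replicates 2 and 3 of Tet2 KO shMbd6 HSPCs and had no peak in any mESC library. Intergenic region 2, at chrX:12252286-12252844 (559 bases), lay 72.5 kb from the nearest TSS, with Bcor as its nearest protein-coding gene. It was covered over 279, 507 and 559 bases in the Tet2 KO shMbd6 libraries, and over 454, 269 and 442 bases in untransfected Tet2 KO mESCs against 333, 559 and 315 bases in WT mESCs. It had no peak in the 9 siRNA-treated Tet2 KO mESC libraries, against 334, 428 and 341 bases in WT siNC mESCs. A region of 524 bases at chr13:111935960-111936483, with Map3k1 as nearest protein-coding gene, was covered over 317, 524 and 524 bases in Tet2 KO shMbd6 HSPCs and had no peak in siRNA-treated Tet2 KO mESCs.

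The 10-kb windows around the TSSs of 1351 of 21938 protein-coding genes (6.16%) held a knockdown-only region, and 45 of these held a shared region too. Shared regions were in 3671 windows (16.7%). The counts for gene lists that follow are read beside these shares and carry no test. A counted window can also hold control peaks outside its knockdown-only region.

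Among HSPC regulators, 2 of 28 windows held a region (7.14%), Cebpa and Hhex, against 5 with a shared region. Cebpa, the transcription factor that starts granulocyte and monocyte differentiation, had a region of 413 bases at chr7:35118842-35119254, centred at −245 bases from its TSS (a minus sign means upstream). Its window was covered over 0.931, 0.380 and 0.417 kb in the Tet2 KO shMbd6 libraries and at 0 in every control library. Hhex, a homeobox factor of blood progenitors, had 334 bases covered in replicates 2 and 3. Gata2, Runx1 and Tet2 had no covered base in their windows in any of the 9 HSPC libraries, and the same held for Myc, Bap1 and Nfkbia.

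Several genes of blood cells lay just outside the set. Kit, the stem cell factor receptor used to sort these cells, had 0.298, 0.361 and 0.493 kb covered in Tet2 KO shMbd6 HSPCs, against 0 in all Tet2 KO shNC libraries and 0, 0 and 0.304 kb in WT shNC libraries. Ikzf1, which encodes the lymphoid factor Ikaros, had 0.493, 0.672 and 0.944 kb in Tet2 KO shMbd6 HSPCs, against 0 in Tet2 KO shNC and 0.289, 0 and 0 kb in WT shNC HSPCs. Socs3, a feedback inhibitor of JAK-STAT signalling, had 0.316, 0.724 and 0 kb in Tet2 KO shMbd6 HSPCs, against 0 in Tet2 KO shNC and 0, 0.289 and 0 kb in WT shNC HSPCs. At each of the 3 genes the only control peaks in the window came from a single WT library, and no knockdown-only region was left there. Mbd6 itself was covered in all 3 Tet2 KO shMbd6 (0.450, 0.410 and 0.314 kb) and all 3 WT shNC libraries (0.425, 0.324 and 0.493 kb), and at 0 in Tet2 KO shNC libraries.

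Lineage lists held few regions each. They were in the windows of 4 of 24 myeloid genes (16.7%), namely Cebpd, Csf2ra (a subunit of the GM-CSF receptor), Klf4 and S100a8, of 3 of 22 lymphoid genes (13.6%, Cd3d, Tcf3 and Foxo1) and of 2 of 19 erythroid and megakaryocyte genes (10.5%, Itga2b and Bcl11a). None of the 11 mast cell and basophil windows and 1 of 12 fibroblast and stromal windows (Vim) held one. Shared regions were in 3 of the 24 myeloid (12.5%), 2 of the 22 lymphoid (9.09%) and 6 of the 19 erythroid and megakaryocyte windows (31.6%). WT shNC peaks covered 0, 0.374 and 0.627 kb of the Klf4 window and 0, 0 and 0.542 kb of the Vim window. At the Cebpd region, 476 bases were covered in replicates 1 and 3, and at Csf2ra 433, 462 and 462 bases in the 3 libraries. Itga2b, the integrin αIIb of megakaryocytes, had 372, 367 and 271 bases at another annotated TSS, 2825 bases downstream of its own.

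Cell cycle genes had the highest share of the 19 lists, with 6 of 32 windows (18.8%), and shared regions were in 12 of the 32 (37.5%). The 6 were Cdk6, Cdkn1b, Ccnd1, Cdc25a, Cdkn2c and E2f1, which include kinases, cyclins and inhibitors of the G1 phase. Cdk6, the cyclin D kinase of blood progenitors, had 489, 459 and 510 bases covered at chr5:3343829-3344338, centred 2599 bases downstream of its TSS and at another annotated TSS. Cdkn1b, the p27 inhibitor, had 510 bases covered in replicates 1 and 2 and Ccnd1, cyclin D1, 267, 402 and 209 bases at −3565 bases from its TSS. The list thus held genes that drive and genes that hold back the cycle.

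Lists of signalling and RNA processing genes ranged between these values. NF-kB and cytokine signalling genes had 3 of 28 windows (10.7%), Nfkb2 and Socs1 among them, AP-1 and immediate-early genes 2 of 18 (Jun and Btg2) and apoptosis and p53 genes 2 of 20 (Pmaip1 and Bid, both BH3-only death genes). WT shNC peaks covered 0, 0.445 and 0.484 kb of the Socs1 window and 0.369, 0.956 and 0 kb of the Bid window. Jun, a subunit of AP-1, had 465, 478 and 497 bases covered at chr4:95052158-95052654, centred at −184 bases from its TSS. Spliceosome genes had 4 of 24 windows (16.7%, Luc7l2, Hnrnpk, U2af1 and Srsf1), and U2af1, the splicing factor that reads the end of an intron, had 324, 353 and 424 bases covered at its TSS. Shared regions were in 7 of the 28 NF-kB and cytokine (25%) and 4 of the 18 AP-1 windows (22.2%). They were in 9 of the 20 apoptosis (45%) and 9 of the 24 spliceosome windows (37.5%).

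Of the genes that set or remove the marks themselves, 2 of 31 Polycomb subunits (Pcgf3 and Pcgf2), 1 of 11 PR-DUB genes (Asxl1) and 1 of 14 RNA 5-methylcytosine and TET genes (Nsun2) had a region in their window. The Pcgf2 and Nsun2 regions were centred −2779 and 1176 bases from those TSSs. Both lay within 1 kb of the TSS of another protein-coding gene. Shared regions were in the windows of 7 of the 31 Polycomb, 2 of the 11 PR-DUB and 5 of the 14 RNA 5-methylcytosine and TET genes. Asxl1, the BAP1 partner that is often mutated in myeloid disease, had 216, 450 and 389 bases covered at −108 bases from its TSS. The Nsun2 region of 275 bases was covered in replicates 1 and 3 and in no mESC H2AK119ub library. Chromatin remodellers and modifiers had 2 of 26 (Hdac3 and Smarca4), cytosolic ribosomal proteins 2 of 24 (Rplp1 and Rps14) and pluripotency genes 2 of 18 (Klf4 and Utf1). For shared regions the counts were 8 of the 26, 7 of the 24 and 3 of the 18. Developmental transcription factors had 4 of 52 (Lhx9, Six2, Sox17 and En2) and HOX genes 0 of 39. Shared regions were in 3 of the 52 (5.77%) and 2 of the 39 (5.13%), beside 16.7% of all genes. The Lhx9 and Six2 regions had a peak in at least 2 libraries of every mESC H2AK119ub group.

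Windows across the genome were then tested with limma on covered kb with Benjamini-Hochberg adjustment. Between Tet2 KO shMbd6 and Tet2 KO shNC HSPCs 501 of the 1351 member windows passed the filter of cover in at least 3 libraries and 468 were called higher, beside 72% of all windows tested. The rule used this contrast, so nothing is read from that count.

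Most of the regions also had a peak in mESCs. In untransfected mESCs, peaks covered 45.6%, 52.4% and 53.7% of the region bases in Tet2 KO libraries and 43.1%, 50.5% and 52.2% in WT libraries. In siRNA-treated mESCs they covered 7.54%, 12.6% and 15.6% with siMbd6, 4.89%, 9.29% and 8.68% with siNsun2 and 5.16%, 10.4% and 10.2% with siNC in Tet2 KO cells, against 42.4%, 52.4% and 52.5% in WT siNC cells. The 9 siRNA-treated Tet2 KO libraries thus stood apart from the 9 others. Replicate 1 was the lowest of its group in all 6 groups.

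In all 18 mESC libraries the knockdown-only regions were covered less than the shared regions. The difference averaged −20.1 ± 2.99 percentage points (SD, n = 18 libraries, range −26.6 to −17.0), and against regions of WT shNC HSPCs −24.4 points. These are descriptions: the 18 libraries measured the same fixed sets, and shared regions were chosen for a peak in further libraries and were longer and stronger in HSPCs, as given above. The part of that in the lower cover was not tested. Of the knockdown-only regions 612 (27.7%) had no peak in any of the 18 libraries and 27 (1.22%) had one in all 18, against 10.2% and 11.5% of shared regions. BAP1 peaks of WT mESCs covered 0.184% and 0.292% of the knockdown-only bases in the 2 libraries, against 5.14% and 5.37% of the shared bases. The BAP1 lists overlapped 5 and 9 of the 2206 regions.

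**Figure D3:**
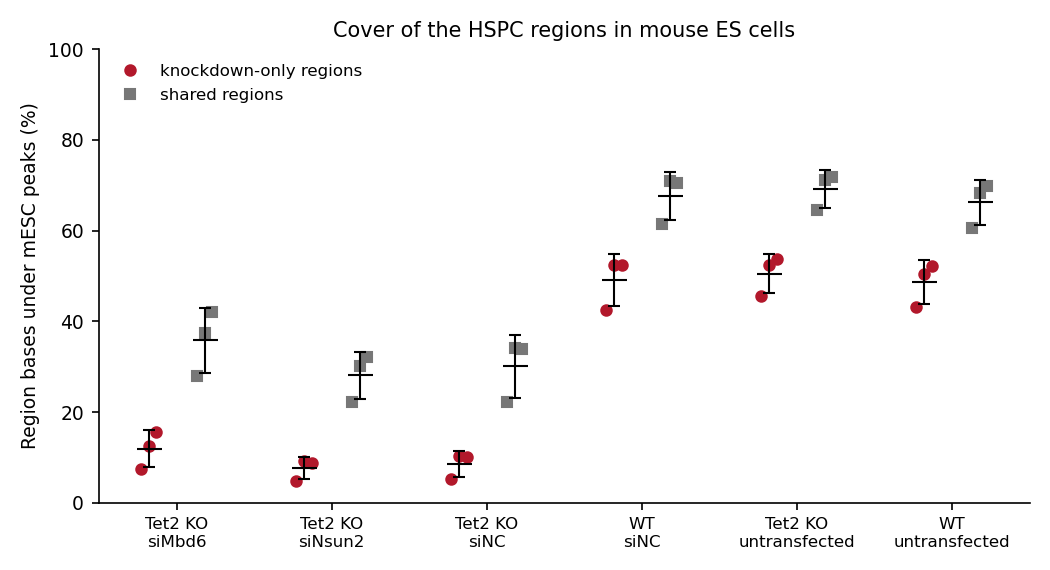
Percent of region bases under H2AK119ub peaks in each mESC library, for knockdown-only (red circles) and shared (grey squares) regions, with mean and SD of the 3 libraries of a group. Knockdown-only regions lie below shared regions in every library, and both are lower in the Tet2 KO groups given siRNA than in the other 3 groups.

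Mbd6 knockdown in Tet2 KO mESCs went with a higher mean cover, in groups that overlapped. Cover averaged 11.9 ± 4.07% with siMbd6 and 8.57 ± 2.95% with siNC (SD, n = 3 each), a difference of 3.35 points with exact permutation p = 0.4 (adjusted p = 0.5 over 4 comparisons). Between same-numbered libraries the difference was 2.38, 2.23 and 5.43 points (exact sign-flip p = 0.25, the smallest for n = 3). Shared regions averaged 35.8 ± 7.19% with siMbd6 and 30.1 ± 6.90% with siNC (n = 3 each, exact p = 0.4). With siNsun2 the knockdown-only regions averaged 7.62 ± 2.38%, against 8.57 ± 2.95% with siNC (n = 3 each, exact p = 0.5, adjusted 0.5), and without siNsun2 replicate 1 the difference of −0.949 points became 0.415.

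Region by region, 55 (2.49%) had a peak in at least 2 of 3 siMbd6 libraries and none in the siNC libraries, while 9 (0.408%) had the opposite pattern. The corresponding numbers were 227 (4.57%) and 40 (0.805%) of the shared regions, and 22 and 30 knockdown-only regions for siNsun2 against siNC. Of the 55, 51 (92.7%) had a peak in at least 2 WT siNC libraries, beside 57.7% of all knockdown-only regions. At a protein-coding gene TSS lay 31 of the 55 (56.4%), beside 44.3% of all knockdown-only regions. Both shares of all regions include the 612 without a peak in any mESC library, whereas the 55 were chosen for mESC peaks. Of the 209 regions with a peak in at least 2 Tet2 KO siNC libraries, all but 19 had one in at least 2 WT siNC libraries too. The 2 shares therefore do not set the 55 apart from other regions with mESC peaks. In 6 of the 55 all 3 siMbd6 libraries had a peak, with Zfp961, Ddhd2, Tle6, Arhgap31, Ankrd12 and Tmem50b as the nearest genes, named after their values were seen. siMbd6 libraries listed more peaks than siNC libraries (9119 ± 3294 and 7538 ± 2851, n = 3 each), and the part of that in these counts was not tested.

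In the windows, 1103 of 1351 member genes passed the filter in siRNA-treated mESCs. With siMbd6 against siNC, 2 of them (0.181%) were called higher, beside 0.158% of all 10772 windows, and none lower, so the members did not stand out from the background. At an unadjusted p under 0.05 there were 45 members and 460 windows in all. The called genes were Gda, a guanine deaminase, and Tmem50b. Gda was covered over 0.431, 0.393 and 0.474 kb with siMbd6 and at 0 with siNC (difference 0.43 ± 0.04 kb, SE, limma adjusted p = 0.00624). Tmem50b was covered over 0.238, 0.283 and 0.237 kb with siMbd6 and at 0 with siNC (difference 0.25 ± 0.03 kb, SE, limma adjusted p = 0.00712). Both groups were separate at both genes, and WT siNC mESCs had 0.642, 0.762 and 0.758 kb at Gda and 0.430, 0.399 and 0.453 kb at Tmem50b. Without siMbd6 replicate 1 the number of members called was 14 and without siNC replicate 3 it was 6. It was 0 with windows scaled to equal covered length, in the 2 groups alone and with peaks of −log10 q of at least 5. The share of all windows called under these settings is not given, so these counts do not set the members apart.

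With siNsun2 against siNC limma called 0 of the 1103 member windows, beside 0.0186% of all windows. An unadjusted limma p under 0.05 was found in 30 of the 1103 members, beside 267 of all 10772 windows. In K-562 cells, 1191 of the 1351 symbols matched a human gene and 198 matched windows passed the filter. Between TET2 KO siMBD6 and TET2 KO siNC cells limma called 0 of them, beside 0% of all 2461 windows. An unadjusted limma p under 0.05 was found in 24 of the 198, beside 263 of the 2461. The median difference was 0.0932 kb over the 198, against 0.0897 kb over all windows, so the members did not stand apart there.

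The comparison of Tet2 KO with WT mESCs gave different values with and without siRNA. Cover of the regions averaged 8.57 ± 2.95% in Tet2 KO siNC cells and 49.1 ± 5.78% in WT siNC cells (SD, n = 3 each, exact p = 0.1, the smallest possible, adjusted 0.4), and the groups did not overlap. As a ratio the Tet2 KO siNC mean was 0.174 of the WT siNC mean for knockdown-only regions and 0.445 for shared regions, where cover averaged 30.1% and 67.7%. Cover of knockdown-only bases relative to shared bases averaged 0.279 ± 0.0394 in Tet2 KO siNC cells and 0.724 ± 0.0306 in WT siNC cells (n = 3 each, exact p = 0.1). In untransfected cells this ratio averaged 0.730 ± 0.0200 in Tet2 KO and 0.733 ± 0.0183 in WT (n = 3 each, exact p = 0.7). Cover of the knockdown-only regions averaged 50.5 ± 4.33% in untransfected Tet2 KO and 48.6 ± 4.81% in untransfected WT cells (n = 3 each, exact p = 0.5), with overlapping groups. Relative to the share of the genome under peaks, cover of the regions was 69.3 ± 7.05 times that share in Tet2 KO siNC and 96.3 ± 17.0 times in WT siNC cells (n = 3 each, exact p = 0.1), and 93.1 ± 12.6 times in untransfected Tet2 KO and 99.7 ± 19.004 times in WT cells (exact p = 0.5), so that in untransfected cells the sign of the difference turned.

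The windows were called in the same pattern. Of the 1103 member windows, 851 (77.2%) were called lower in Tet2 KO siNC than in WT siNC mESCs, beside 71.9% of all windows, and 1 was called higher. The median difference was −0.438 kb over the members and −0.418 kb over all windows. Without WT siNC replicate 1, 2 or 3 the members called in either direction were 458, 337 and 340. With windows scaled to equal covered length 487 were called, 31 of them higher, and with peaks of −log10 q of at least 5 there were 506. These counts under other settings are of members alone, without the share of all windows called. In untransfected mESCs 1250 member windows passed and limma called 0, beside 0.0234% of all windows. An unadjusted limma p under 0.05 was found in 47 of the 1250, beside 710 of all 12836 windows.

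Cover in mESCs differed with the position of the regions. At protein-coding gene TSSs, peaks covered 14.5 ± 4.64% of the bases in Tet2 KO siMbd6, 9.94 ± 3.98% in Tet2 KO siNC and 70.7 ± 7.04% in WT siNC mESCs (SD, n = 3 each). Between genes the values were 8.59 ± 2.44%, 6.06 ± 2.03% and 24.1 ± 3.89%. Introns were close to the intergenic values with 6.96 ± 3.21%, 6.48 ± 1.47% and 23.9 ± 3.08%. In shared intron regions, by contrast, cover was 36.5 ± 6.02% with siMbd6, 36.2 ± 6.93% with siNC in Tet2 KO and 35.9 ± 6.02% in WT siNC cells, values that lay within 1 SD of each other. Of the knockdown-only regions, 257 of 454 in introns (56.6%) and 229 of 433 between genes (52.9%) had no peak in any mESC library, against 41 of 978 at protein-coding gene TSSs (4.19%).

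**Figure D4:**
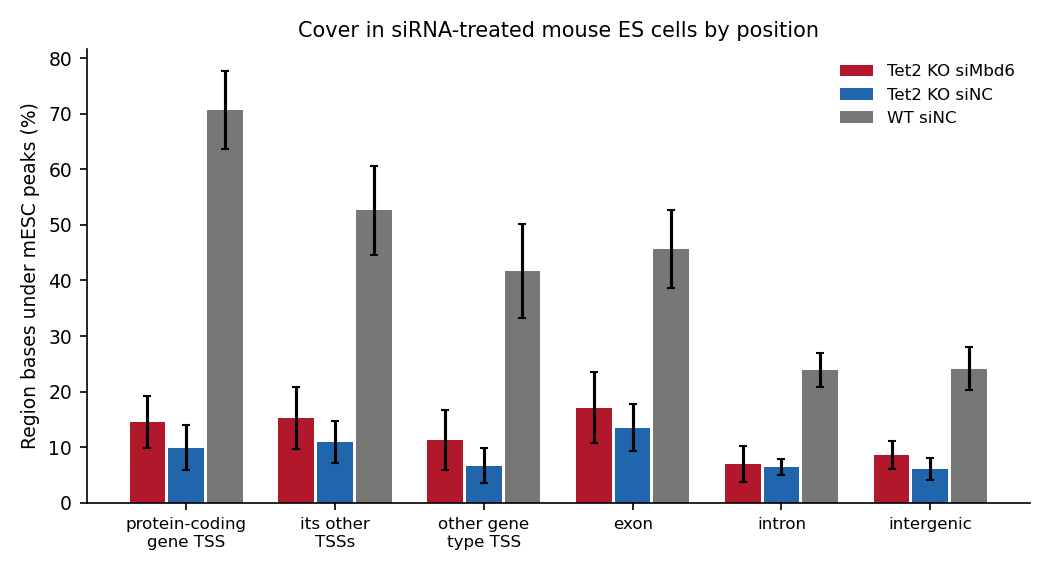
Percent of the knockdown-only bases under peaks in siRNA-treated mESCs, by position of the region's centre, as mean and SD of 3 libraries for Tet2 KO siMbd6 (red), Tet2 KO siNC (blue) and WT siNC (grey). Cover in WT siNC cells is 70.7% at protein-coding gene TSSs and near 24% in introns and between genes.

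Motif letters were searched on both strands in the central 300 bases of each region. At protein-coding gene TSSs, GGGCGG, the core bound by SP and KLF factors, was in 65.6% of knockdown-only and 75.2% of shared windows, beside 35.7% of all 32851 RefSeq promoters of the same length. CCGGAAG, read by ETS factors, was in 16.4% and 16.1%, beside 8.86% of promoters. The promoters were not matched to the regions in GC or CpG content, and the part of that in these shares was not tested. The letters for CRE (TGACGTCA), NRF1 (GCATGCGC), YY1 (AAGATGGCG) and the E-box (CACGTG) were in 3.27%, 4.81%, 2.66% and 9.41% of knockdown-only TSS windows, against 2.60%, 5.54%, 2.16% and 11.0% of shared ones.

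Away from gene starts the letters TGTGGT, the core read by RUNX factors, were common. They were in 41.0% of the 887 knockdown-only regions in introns and between genes, against 24.4% of the 1615 shared ones and 20.5% of 194014 tiles of 300 bases of chromosome 19. With windows held to the interquartile range of knockdown-only GC (49.7% to 56.3%), the shares were 44.8%, 31.3% and 21.5%. The difference between the kinds of region was smaller among regions absent from mESCs, once they were split by presence in mESCs: the letters were in 53.1% of 486 knockdown-only and 50.7% of 404 shared regions without any mESC peak, and in 26.4% of 401 and 15.6% of 1211 with one. The letters AGATAA, read by GATA factors, were in 8.34% of knockdown-only regions, 4.09% of shared regions and 18.5% of tiles. For AGATAA the windows were not held to a GC range, and the part of GC content in these shares was not tested. Repeats differed too: 4.51% of these knockdown-only and 25.9% of these shared regions were mostly soft-masked, and the part of that was not tested. Such matches describe letters and show no binding.

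**Figure D5:**
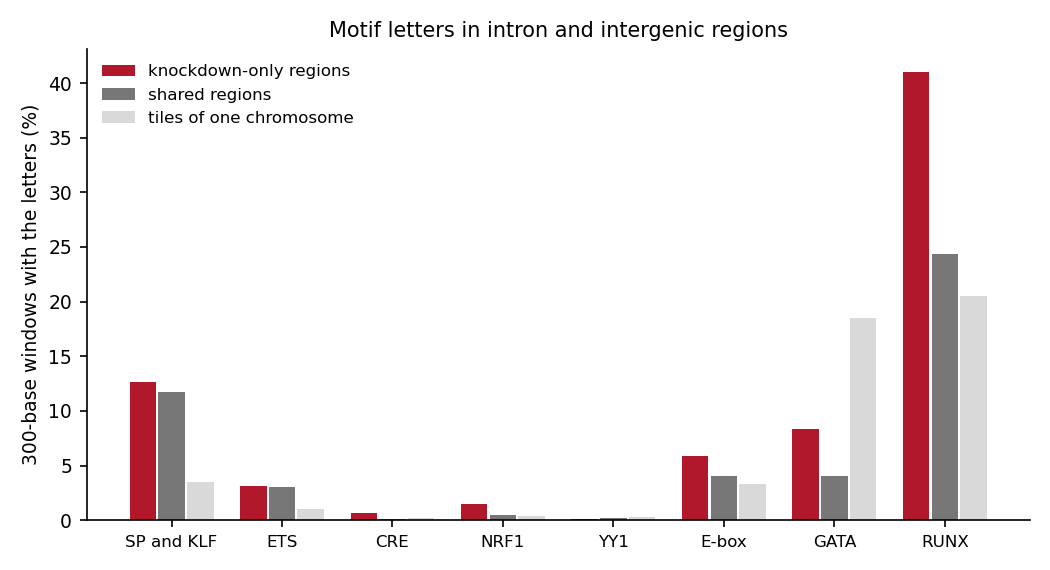
Percent of 300-base windows that hold each motif's letters on either strand, for knockdown-only (red) and shared (dark grey) regions in introns and between genes and for tiles of chromosome 19 (light grey). TGTGGT (RUNX) is in 41.0%, 24.4% and 20.5% of the windows.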

How the data were processed

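H2AK119ub and BAP1 CUT&Tag peak lists of 41 libraries were available, grouped by the labels. The authors trimmed reads with Trimmomatic 0.39, mapped them with Bowtie2 2.4.1 to mm10 or hg38 together with Drosophila, removed duplicates with Picard and called broad peaks per library with MACS2 (broad cutoff 0.01). The deposited columns are positions, a score, a fold enrichment over local background (a ratio) and −log10 p and −log10 q values, all made by the authors with MACS2. The spike-in normalization they describe is not part of peak lists, and no read depth was given. Positions were used throughout, −log10 q for stricter or equal-sized lists and fold enrichment as a description.

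The members and gene lists were chosen with earlier results of these data known. Peaks on 19 autosomes, X and Y were merged per library and regions formed as described. Genes came from GENCODE for mouse (vM21) and human (v44), repeats and bases from GRCm38.p6 and promoters from RefSeq (GRCm38.p6). A gene's window was 5 kb to each side of its TSS, and covered kb per window was modelled with limma 3.58.1 (R 4.3.3) across all libraries of 1 experiment, keeping windows with cover in 3 or more, with Benjamini-Hochberg adjustment and a threshold of 0.05. Cover was compared with exact permutation and sign-flip tests over libraries. Interval functions and tests were checked on simulated data against bedtools 2.31.1 and SciPy 1.17.1. Named genes followed a rule: the 10 longest TSS regions covered in all 3 libraries, up to 3 genes per list by length, called windows, the longest regions far from genes and a set of genes picked for the study's question. Further list members are named to complete a count. K-562 windows were matched by symbol, ignoring case. Alternatives covered the peak threshold, the region rule, scaling, filters, a replicate block and leaving out each library. Some items that the rule names are not reported here.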

Additional observations from a re-analysis of the deposited data

Results flagged for a closer look

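The difference in cover of the knockdown-only regions between Tet2 KO and WT was not the same in siRNA-treated and untransfected mESCs. It was −40.5 percentage points in Tet2 KO siNC against WT siNC cells and 1.94 points in untransfected Tet2 KO against WT cells, a difference of −42.5 points (exact permutation of labels within each contrast over 400 relabellings, two-sided p = 0.025, where 0.005 is the smallest possible). The relabelling takes Tet2 KO and WT to be alike in both contrasts, so a difference with siNC alone can make this p-value small. It does not test whether the 2 differences are equal. In points, shared regions showed a similar pattern, with −37.6 points with siNC and 2.96 points untransfected. Knockdown-only cover relative to shared cover averaged 0.279 in Tet2 KO siNC and 0.724 in WT siNC cells. It averaged 0.730 and 0.733 in untransfected Tet2 KO and WT cells. Whether the 2 kinds of region differ in the change between siRNA-treated and untransfected cells was not tested. All 3 Tet2 KO siNC libraries lay below all 3 WT siNC libraries. The Tet2 KO siNC libraries also listed fewer peaks in all, 7538 ± 2851 against 32405 ± 5274 in untransfected Tet2 KO cells (SD, n = 3 each), and the part of that in the difference was not tested.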

How the results depend on the processing

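The number of knockdown-only regions, 2206, was 675 with peaks of −log10 q of at least 5, 629 when covered in all 3 Tet2 KO shMbd6 libraries, 114 with libraries of equal peak number, and 1107 to 2803 with single libraries left out. Chosen after seeing the data, controls as regions in at least 2 of 3 libraries gave 3843 and Tet2 KO shNC peaks alone 5561. Widened control peaks, merged gaps and WT shNC peaks alone gave counts within 1.5 times. Scaled by the share of the genome covered, the untransfected Tet2 KO against WT difference in cover reversed to −6.68 times the genome share, and with single libraries left out it ran from −0.794 (without WT replicate 1) to 4.41 points. For siNsun2 against siNC that range was −2.65 to 0.415 points. Cover for siMbd6 against siNC and Tet2 KO siNC against WT siNC, and knockdown-only against shared regions, kept direction in the 10, 10 and 21 alternatives run. The replicate block among the 10 could not change the difference. With 3 libraries a group no comparison of cover between groups could pass 0.05 under any of them. Member windows called with siMbd6 against siNC numbered 0 after scaling to equal covered length, 0 in the 2 groups alone, 0 with stricter peaks and 2 to 14 with single libraries left out. For Tet2 KO siNC against WT siNC the 852 calls became 487 after scaling (31 of them higher), 506 with stricter peaks and 337 to 834 with single libraries left out. In untransfected cells the calls were 1 with no filter, 5 on log2(kb + 0.1) and 1 with stricter peaks, and in K-562 cells 8 in the 2 groups alone. The causes were not tested. All these calls are counts of member windows alone, without the share of all windows called under the same setting. They do not tell whether the members stand apart. The count for siNsun2 stayed at 0 in its 12 alternatives.

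The main comparisons did not pair libraries by replicate number. Over windows, deviations of same-numbered libraries correlated at 0.00190 to 0.239 in siRNA-treated mESCs, against at most 0.0633 for different-numbered libraries. In untransfected mESCs the values were 0.0170 to 0.165, against at most 0.0837. The same-numbered values were all positive but not above 0.1 in every pair, and a shared replicate effect was not tested. A replicate block cannot change the siMbd6 against siNC difference in cover of 3.35 points, because the paired differences average to the difference of the means. Between same-numbered libraries it was 2.38, 2.23 and 5.43 points (exact sign-flip p = 0.25, the smallest for n = 3). With the block the member calls were 3 with siMbd6 and 891 for Tet2 KO siNC against WT siNC, and no other call changed. Depth could not be read from the files.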
